A study of Cricetulus griseus with 20 samples.

Results

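Ndufa4l2, Bnip3 and Fam162a are 3 nuclear genes whose proteins work at the mitochondrion, and they make up 3 of the 10318 mRNAs measured in hypoxic and normoxic hamster preadipocytes. They were picked by name, because earlier results of the same libraries had placed them among the mRNAs most raised by hypoxia at D0, D1 and D3. Each name was matched to 1 row through the study's own gene tables, which give Ndufa4l2 the identifier ENSCGRG00015028384, Bnip3 ENSCGRG00015027916 and Fam162a ENSCGRG00015018436. The hypoxia-to-normoxia differences at D0, D1 and D3 are therefore given as a description without a test, and tests of these 3 genes were kept to comparisons among D7 and D11, with the spread taken from all 20 libraries.

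The cells were primary preadipocytes isolated from inguinal fat of 6-week-old Chinese hamsters (Cricetulus griseus), with the tissue of the animals pooled. The D0 groups were collected before the induction of adipogenesis, and the groups of D1 to D11 had received dexamethasone, insulin and IBMX. By the study's methods, the medium was changed 2 days after induction to one with insulin only. The D1 groups were thus in the full mixture, and those of D3, D7 and D11 in insulin alone. The 5 hypoxia groups spent the last 24 h before collection at D0, D1, D3, D7 or D11 in 1% O2, and the 5 normoxia groups were collected on the same days after culture in ordinary air. Each of the 10 groups has 2 libraries, 20 in all, and replicate 1 is given before replicate 2 throughout. The libraries of a group are biological replicates in the study's words, without a statement on whether the cultures were separate, so a p-value here measures the spread between these libraries.

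When oxygen is short, prolyl hydroxylases stop marking the alpha subunits of the hypoxia-inducible factors (HIFs) for destruction, and HIF-1 then turns on genes for glycolysis and for lowering mitochondrial work. Ndufa4l2 encodes a relative of the respiratory chain subunit Ndufa4 and is known as a HIF-1 target that lowers oxygen use and reactive oxygen at complex I. Bnip3 encodes a BH3-only member of the BCL2 family in the outer mitochondrial membrane, which binds LC3 and marks mitochondria for mitophagy. Fam162a, also called HGTD-P, encodes a mitochondrial HIF-1 target that was described as a promoter of cell death in hypoxia. White adipocytes have few mitochondria compared with brown adipocytes, and mitophagy is one route by which mitochondria are removed.

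The values are TPM, a transcript level scaled for the length of the transcript and the depth of the library, and read counts per gene were not used here, so the counting error of a low TPM is unknown. The listed mRNAs held 27.9% to 45.8% of a library's total TPM, with 43.8% to 45.8% in hypoxia and 41.7% to 45.7% in normoxia at D11. The median log2 difference of all mRNAs between hypoxia and normoxia was -0.05, -0.09, -0.07, -0.19 and 0.51 at D0, D1, D3, D7 and D11, so at D7 and D11 the bulk of mRNAs was shifted. Adipocyte markers, of which 8 of 16 had a name, summed to 185 to 186 TPM in hypoxia and 167 to 169.9 TPM in normoxia at D0, to 85.8 to 102 TPM in hypoxia and 68.6 to 83.6 TPM in normoxia at D1, to 168 to 209.7 TPM in hypoxia and 211 to 222 TPM in normoxia at D3, to 406 to 452 TPM in hypoxia and 576 to 596 TPM in normoxia at D7 and to 469 to 519 TPM in hypoxia and 471 to 571 TPM in normoxia at D11. Preadipocyte and fibroblast markers, of which 3 of 12 had a name, summed to 12.2 TPM in both libraries of hypoxia and 7.57 to 7.97 TPM in normoxia at D0, to 12.6 to 14.5 TPM in hypoxia and 6.94 to 7.41 TPM in normoxia at D1, to 28.8 to 35.6 TPM in hypoxia and 17.6 to 18.5 TPM in normoxia at D3, to 17.1 to 23.0 TPM in hypoxia and 29.0 to 32.1 TPM in normoxia at D7 and to 52.7 to 55.7 TPM in hypoxia and 11.6 to 15.2 TPM in normoxia at D11. For these 3 markers hypoxia was thus the higher at D0, D1, D3 and D11 and the lower at D7. Of the adipocyte markers at D7, Fabp4 averaged 215 TPM in hypoxia and 421 TPM in normoxia, whereas Pparg averaged 142 and 74.2 TPM. By limma, 3 of the 8 adipocyte markers were higher in hypoxia at D7 and 3 lower at an unadjusted p under 0.05. Such a p was seen in 55.4% of all mRNAs in either direction. The median log2 difference of the 8 was -0.01. The 1 named endothelial marker of 4, Pecam1, stayed at or under 9.03 TPM in all libraries, and none of the macrophage, mesothelial and mural markers had a name. Results at D11 hold for the labels as given. In bulk RNA, fewer cells of a type and less RNA per cell cannot be told apart.

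All 3 mRNAs were lower in normoxic than in hypoxic cells at D0, D1 and D3, and in normoxic cells they were higher at D7 and D11 than on those days. Of the 3, Ndufa4l2 alone was near 1 TPM in normoxia, at D0 and D1. In hypoxia, Ndufa4l2 was measured at 53.1 and 50.5 TPM on D0, 111 and 141 TPM on D1, 162 and 188 TPM on D3, 276 and 286 TPM on D7 and 525 and 451 TPM on D11. In normoxia its levels were 2.12 and 0.972 TPM on D0, 1.38 and 1.65 TPM on D1, 8.96 and 18.4 TPM on D3, 252 and 312 TPM on D7 and 448 and 505 TPM on D11. The hypoxic and normoxic libraries of a day were far apart at D0, D1 and D3 and overlapped at D7 and D11.

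In hypoxia, Bnip3 was measured at 269 and 245 TPM on D0, 204 and 256 TPM on D1, 311 and 333 TPM on D3, 358 and 375 TPM on D7 and 319.8 and 313 TPM on D11. In normoxia its levels were 18.5 and 17.6 TPM on D0, 18.2 and 14.6 TPM on D1, 51.9 and 66.8 TPM on D3, 216 and 242 TPM on D7 and 616 and 762 TPM on D11. Both hypoxic libraries were above both normoxic libraries at D0, D1, D3 and D7 and below both at D11, and no day showed overlap.

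In hypoxia, Fam162a was measured at 124 and 98.5 TPM on D0, 107 and 135 TPM on D1, 161 and 153 TPM on D3, 165 and 139.7 TPM on D7 and 243 and 238 TPM on D11. In normoxia its levels were 14.7 and 14.4 TPM on D0, 25.0 and 20.6 TPM on D1, 38.8 and 46.5 TPM on D3, 120.03 and 132 TPM on D7 and 186 and 215 TPM on D11. Both hypoxic libraries were above both normoxic libraries on all 5 days, by less at D7 and D11 than before.

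**Figure D1:**
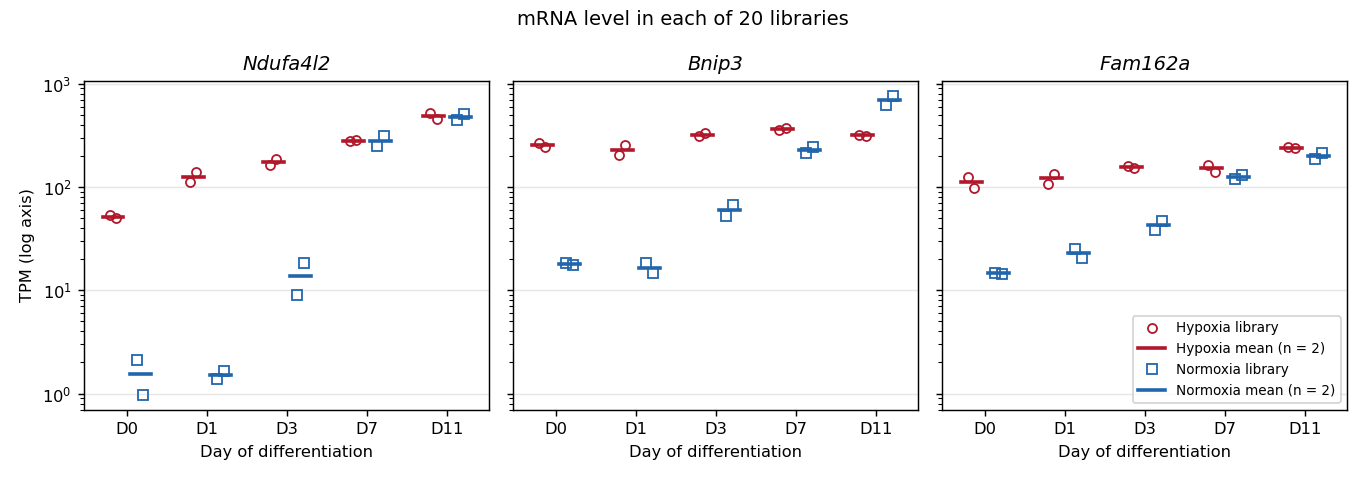
TPM (log axis) of Ndufa4l2, Bnip3 and Fam162a by day of differentiation, with circles for hypoxia libraries, squares for normoxia libraries and bars for the mean of 2. Hypoxia stands well above normoxia at D0, D1 and D3 for all 3 mRNAs, the Ndufa4l2 libraries overlap at D7 and D11, and Bnip3 at D11 is 319.8 and 313 TPM in hypoxia against 616 and 762 TPM in normoxia.

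The differences that chose the genes were largest for Ndufa4l2, the paralogue of the respiratory chain subunit. Its mean TPM in hypoxia was 33.5-fold that in normoxia at D0, 83.2-fold at D1 and 12.8-fold at D3. Between single libraries the fold at D1 ran between 67.5 and 102, and at D3 between 8.79 and 21.0. The normoxic values at D0 and D1 are close to the 1 TPM at which the authors listed an mRNA, so a ratio to them is unsteady: at D0 it ran between 23.8 and 54.6. On the log2(TPM + 1) scale, which understates the change of low genes, the difference was 4.41, 5.65 and 3.66 at D0, D1 and D3, the highest of all 10318 mRNAs on each of those days. Of all mRNAs, 0.853%, 1.29% and 1.4% were DE and higher in hypoxia at D0, D1 and D3, and 0.0291%, 0.485% and 0.485% DE and lower, DE meaning a Benjamini-Hochberg adjusted p under 0.05 and an absolute log2 difference over 1, the thresholds of the study.

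Bnip3, the mitophagy receptor, had a mean 14.2-fold that of normoxia at D0, 14.0-fold at D1 and 5.43-fold at D3, with log2(TPM + 1) differences of 3.76, 3.73 and 2.43. It held rank 2 of all mRNAs at D0 and D1 and rank 4 at D3. The hypoxic mean of Fam162a was 7.62-fold, 5.31-fold and 3.68-fold the normoxic one on those days, with log2(TPM + 1) differences of 2.84, 2.36 and 1.86 and ranks 6, 13 and 25. In each gene the fold at D3 was the lowest of the 3 days, while the hypoxic mean at D3 was the highest of the 3 days: the normoxic mean at D3 had reached 13.7 TPM for Ndufa4l2, 59.3 TPM for Bnip3 and 42.6 TPM for Fam162a.

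Ranked within a library, Ndufa4l2 stood at ranks 415 and 375 of the 10318 mRNAs in hypoxia at D1, against 9201 and 9009 in normoxia. Bnip3 stood at ranks 213 and 188 in hypoxia at D1, against 3107 and 3690 in normoxia. By D11 the ranks of Ndufa4l2 were 113 and 118 in hypoxia and 149 and 145 in normoxia. Bnip3 at D11 stood at ranks 177 and 174 in hypoxia and at 114 and 99 in normoxia, so the change of place at D11 was also seen in ranks, which do not depend on a library's scale.

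At D7, hypoxia and normoxia were compared on libraries that had no part in the choice of the genes. By limma, 0 of the 3 mRNAs were DE at D7, and 1 of 3 had an unadjusted p under 0.05, as 55.4% of all mRNAs had, while 0.688% were DE and higher and 4.86% DE and lower. Bnip3 had a mean of 367 ± 12.1 TPM in hypoxia, against 229 ± 18.8 TPM in normoxia (SD, n = 2 each), a 1.60-fold difference. The log2 difference of Bnip3 was 0.68 ± 0.14 (SE), with a limma adjusted p of 0.00057, under the threshold for p and not over that for size.

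Ndufa4l2 at D7 averaged 281 ± 6.66 TPM in hypoxia, against 282 ± 42.9 TPM in normoxia (SD, n = 2 each). Its log2 difference was 0.0038 with a 95% confidence interval of -0.47 to 0.48 (limma adjusted p = 0.99), an interval that still holds differences of that size in either direction. Fam162a at D7 had a mean of 152 ± 17.9 TPM in hypoxia, against 126 ± 8.38 TPM in normoxia (SD, n = 2 each), with a log2 difference of 0.27 and an interval of -0.03 to 0.56 (limma adjusted p = 0.12).

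At D11, the day of the most mature cells, Bnip3 was lower in hypoxia than in normoxia. Ndufa4l2 and Fam162a did not pass the test. Bnip3 averaged 316 ± 4.80 TPM in hypoxia, against 689 ± 103 TPM in normoxia (SD, n = 2 each), so the hypoxic mean was 0.459 of the normoxic one. Relative to the median of all mRNAs, the log2 difference of Bnip3 was -1.63 at D11 and 0.87 at D7. The log2 difference of Bnip3 was -1.11 ± 0.14 (SE, limma adjusted p = 7.4e-07), 1 of the 3 genes DE and lower where 2.64% of all mRNAs were DE and lower and 21.2% DE and higher. Without replicate 2 of normoxia, the library with 762 TPM, the difference was -0.96, which is under the threshold for size (adjusted p = 3.7e-05; over all alternatives tried it ran between 9.0e-10 and 8.6e-05). The marker sums of preadipocytes and fibroblasts given above lay on the side opposite to Bnip3 at D7 and at D11. Of the 8 named adipocyte markers, 5 were DE and higher in hypoxia at D11 and 0 DE and lower, with a median log2 difference of 1.23, and at D7 0 were DE in either direction. Cd36, a fatty acid transporter, averaged 56.0 ± 5.32 TPM in hypoxia and 6.78 ± 1.72 TPM in normoxia at D11, and Plin4, a lipid droplet protein, 8.90 ± 2.25 TPM in hypoxia, against 1.02 ± 0.0436 TPM in normoxia (SD, n = 2 each). On the other side, Pparg averaged 170 ± 12.1 TPM in hypoxia, against 257 ± 51.7 TPM in normoxia. Fabp4 averaged 213 ± 23.8 TPM in hypoxia, against 239 ± 17.3 TPM in normoxia, with overlapping libraries. By limma, 6 of the 8 markers were higher at D11 at an unadjusted p under 0.05 and 1 was lower, where 78.0% of all mRNAs passed in either direction. The part of these markers in the Bnip3 result was not tested.

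Ndufa4l2 at D11 averaged 488 ± 52.4 TPM in hypoxia, against 477 ± 40.7 TPM in normoxia (SD, n = 2 each), with a log2 difference of 0.03 and an interval of -0.45 to 0.51 (limma adjusted p = 0.90). Fam162a averaged 241 ± 3.41 TPM in hypoxia, against 200.3 ± 20.6 TPM in normoxia (SD, n = 2 each), with a log2 difference of 0.27 and an interval of -0.03 to 0.56 (limma adjusted p = 0.091). All 3 values lay below the median of all mRNAs at D11, which was 0.51. With each library centred on its own median, Ndufa4l2 turned to -0.53 (adjusted p = 0.034) and Fam162a to -0.29 (adjusted p = 0.016), and with quantile normalization they were 0.29 (adjusted p = 0.21) and 0.44 (adjusted p = 0.0014), whereas Bnip3 was lower in hypoxia under each scaling tried, between -0.61 with quantile normalization and -1.67 with centring.

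**Figure D2:**
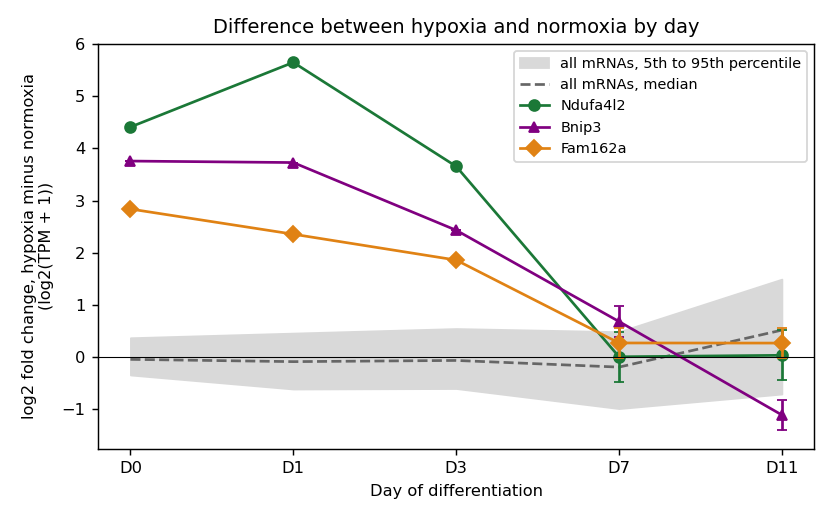
Log2 difference between hypoxia and normoxia on the log2(TPM + 1) scale by day, with 1 line for each mRNA, 95% confidence intervals at D7 and D11 and, in grey, the median and the 5th to 95th percentile of all 10318 mRNAs. The values of the 3 mRNAs lie far above the grey band at D0, D1 and D3, where they served to choose the genes, and at D11 Bnip3 lies at -1.11, below the band.

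The effect of hypoxia on Bnip3 differed between the specialized timepoints. The difference at D11 minus the difference at D7 was -1.79 ± 0.20 (SE) on the log2 scale, with a limma adjusted p of 1.4e-07 for this interaction, and 4.31% of all mRNAs were DE and lower in it against 36.9% DE and higher. It was DE and lower under each alternative tried, between -2.61 and -1.27. For Ndufa4l2 the same contrast gave 0.03 with an interval of -0.65 to 0.71 (limma adjusted p = 0.94), and for Fam162a -0.0021 with an interval of -0.42 to 0.41 (limma adjusted p = 0.99), where the median of all mRNAs was 0.70. Centred on library medians, the contrast of Ndufa4l2 was -0.79 (adjusted p = 0.026) and its sign thus depended on the scaling.

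Maturation between D7 and D11 was tested within each oxygen condition. In hypoxia 0 of the 3 mRNAs were DE by limma, and 2 had an unadjusted p under 0.05, as 84.3% of all mRNAs had, while 28.5% were DE and higher at D11 and 0.456% DE and lower. Ndufa4l2 was 0.79 higher at D11 on the log2 scale (limma adjusted p = 0.0036) and Fam162a 0.66 higher (limma adjusted p = 0.00025), both close to the median of all mRNAs of 0.72, and with each library centred both signs turned, to -0.0098 and -0.14. Bnip3 in hypoxia differed by -0.21 between D11 and D7 (limma adjusted p = 0.17), and by -1.01 with each library centred (adjusted p = 6.9e-07), which passes both thresholds.

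In normoxia 1 of the 3 mRNAs was DE between D11 and D7, where 5.31% of all mRNAs were DE and higher, 4.11% DE and lower and the median difference was 0.0089. Bnip3 rose by 1.58 ± 0.14 (SE) on the log2 scale (limma adjusted p = 3.4e-08), a mean of 689 TPM at D11 against 229 TPM at D7, and by 0.78 with quantile normalization, under the threshold for size. Ndufa4l2 differed by 0.76 (limma adjusted p = 0.0077) and Fam162a by 0.66 (limma adjusted p = 0.00051), neither over the threshold for size. With quantile normalization these were 0.11 (adjusted p = 0.64) and 0.17 (adjusted p = 0.15). In normoxia the libraries of D11 were above those of D7 for all 3 mRNAs, whereas in hypoxia Bnip3 at D11 was below D7 in both libraries.

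Over the whole course in normoxia, the mean at D11 was 308-fold that at D0 for Ndufa4l2 (between 211 and 520 for single libraries), 38.1-fold for Bnip3 and 13.7-fold for Fam162a. The same fold in hypoxia was 9.42, 1.23 and 2.16. The step with the largest normoxic fold of means was D7 over D3 in all 3 genes, with a fold of 20.6 for Ndufa4l2 (between 13.7 and 34.8 for single libraries), 3.86 for Bnip3 and 2.96 for Fam162a. For Bnip3 the step D3 over D1 was close, at 3.62. Its folds between single libraries overlapped, at 3.23 to 4.67 for D7 over D3 and 2.85 to 4.56 for D3 over D1. The steps also differ in length. The normoxic mean of Ndufa4l2 at D7 was 5.44-fold its hypoxic mean at D0, so the level reached in air late in differentiation was above that reached after 24 h of hypoxia in undifferentiated cells. For Bnip3 the normoxic D7 mean was 0.890 of the hypoxic D0 mean, and for Fam162a 1.13-fold, with overlapping libraries. These stage folds involve libraries that helped to choose the genes and were not tested.

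Ordered by mean TPM over the 10 groups, Ndufa4l2 ran from 1.51 TPM in normoxia at D1 to 488 TPM in hypoxia at D11. The neighbours in that order whose libraries overlapped were normoxia at D1 and D0, hypoxia and normoxia at D7, and hypoxia and normoxia at D11. Bnip3 ran from 16.4 TPM in normoxia at D1 to 689 TPM in normoxia at D11, and its hypoxic groups all lay between 230.2 and 367 TPM. In the order of Bnip3, normoxia at D1 and D0 overlapped, as did normoxia at D7 with hypoxia at D1, hypoxia at D1 with D0, and hypoxia at D11 with D3. Fam162a ran from 14.6 TPM in normoxia at D0 to 241 TPM in hypoxia at D11, and the overlapping neighbours were hypoxia at D0 and D1, hypoxia at D1 with normoxia at D7, and hypoxia at D7 and D3.

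Ratios between the 3 mRNAs within a library do not depend on how the library was scaled, and they show that the genes did not change in step. Bnip3 over Fam162a was 1.32 and 1.31 in hypoxia and 3.32 and 3.54 in normoxia at D11. At D7 the same ratio was 2.17 and 2.69 in hypoxia and 1.80 and 1.84 in normoxia, so the libraries of the 2 conditions did not overlap on either day and changed places. Ndufa4l2 over Bnip3 was 1.64 and 1.44 in hypoxia and 0.726 and 0.664 in normoxia at D11, and 0.771 and 0.761 in hypoxia and 1.17 and 1.29 in normoxia at D7. At D0 Ndufa4l2 was the scarcest of the genes, and it stood at 0.197 and 0.206 of Bnip3 in hypoxia and at 0.115 and 0.0552 in normoxia. TPM is corrected for length, so these are ratios of estimated transcript levels.

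**Figure D3:**
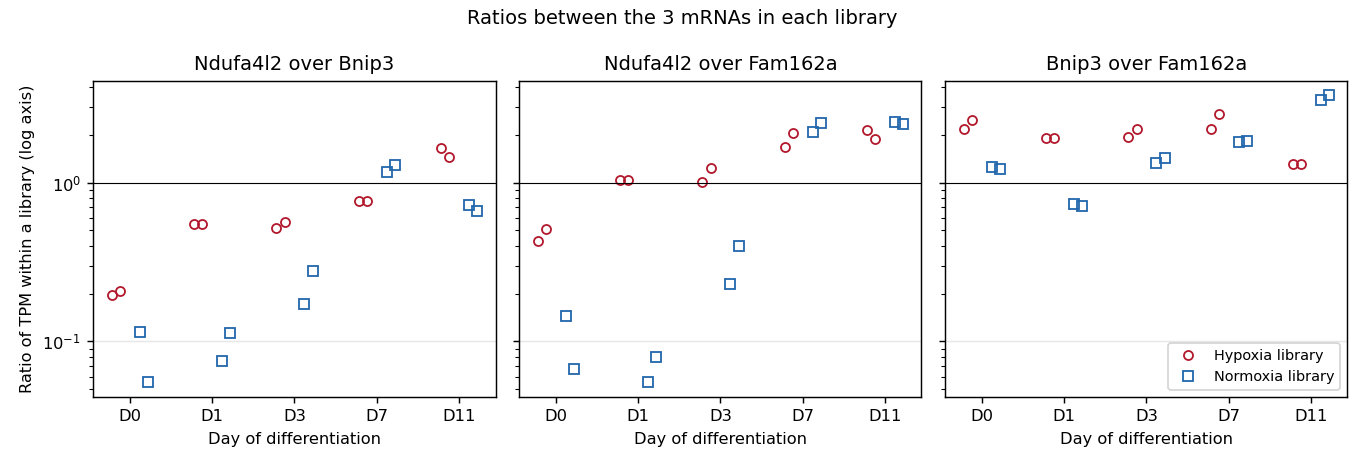
Ratios of TPM between pairs of the 3 mRNAs within each library (log axis) by day, with circles for hypoxia and squares for normoxia. Bnip3 over Fam162a lies at 1.32 and 1.31 in hypoxia against 3.32 and 3.54 in normoxia at D11, the reverse of the order seen on the earlier days.

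Over the 10 group means of log2(TPM + 1), the members resembled each other with a Pearson r of 0.979 for Ndufa4l2 and Fam162a, 0.971 for Bnip3 and Fam162a and 0.964 for Ndufa4l2 and Bnip3. These and the following r are descriptions over 10 groups that share culture, day and oxygen, among 2018 named mRNAs with a group mean of at least 10 TPM. Ndufa4l2 was most like Fam162a, then Ccng2, an atypical cyclin (r = 0.967), and Bnip3l, the mitophagy receptor NIX (r = 0.966). Bnip3 was most like Ldha, lactate dehydrogenase A (r = 0.987), Pgam1, a phosphoglycerate mutase of glycolysis (r = 0.986), and P4ha1, a collagen prolyl hydroxylase subunit (r = 0.982). Fam162a was most like Cda, cytidine deaminase (r = 0.983), Ndufa4l2 and Ldha (r = 0.976).

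The mRNAs most like Bnip3 had smaller differences at D11. P4ha1 had 285 and 284 TPM in hypoxia and 358 and 463 TPM in normoxia at D11, a log2 difference of -0.52 (limma adjusted p = 0.0010). Ldha had 1001 and 903 TPM in hypoxia and 1049 and 1194 TPM in normoxia at D11, a log2 difference of -0.23 (limma adjusted p = 0.076). Both were lower in hypoxia in all libraries, neither passed the threshold for size, and both lay below the median of all mRNAs. At D7 P4ha1 differed by 0.38 (limma adjusted p = 0.017) and Ldha by 0.24 (limma adjusted p = 0.10). Pgam1 differed by -0.21 at D11 (limma adjusted p = 0.15) and by 0.80 at D7 (limma adjusted p = 6.5e-05). The difference at D11 minus that at D7 was -0.90 for P4ha1, -0.47 for Ldha and -1.01 for Pgam1 (limma adjusted p = 0.00015, 0.015 and 7.4e-05). In it Pgam1 was DE and lower, as Bnip3 was, where 4.31% of all mRNAs were. The likeness was itself read over groups that include D7 and D11.

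The study lists a long noncoding RNA, TU18022, as lying near Bnip3, and its identifier among the 4295 lncRNAs is G7984. It had 0.795 and 0.709 TPM in hypoxia and 0.318 and 0.229 TPM in normoxia at D0, and 0.703 and 0.817 TPM in hypoxia and 0.637 and 0.649 TPM in normoxia at D1. It had 0.577 and 0.615 TPM in hypoxia and 0.358 and 0.395 TPM in normoxia at D3, and 0.485 and 0.335 TPM in hypoxia and 0.860 and 0.748 TPM in normoxia at D7. At D11 it had 1.82 and 1.57 TPM in hypoxia and 0.443 and 0.395 TPM in normoxia. TU18022 was thus on the same side as Bnip3 at D0, D1 and D3 and on the opposite side at D7 and D11, with no overlap on any day, at levels below 2 TPM where the counting error is unknown and with no test made.

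Other mitochondrial genes were read from lists written from general knowledge, and names existed for only 3858 of the 10318 mRNAs, chiefly those the study called DE, so a named list leans towards genes that changed. Of 10 other HIF targets listed with the mitochondrion, 6 had a name. Among them is Mxi1, a MYC antagonist rather than a mitochondrial protein. By limma, 3 of those 6 were DE and higher in hypoxia at D0, where 0.853% of all mRNAs were, 4 at D1 against 1.29%, 5 at D3 against 1.4%, 1 at D7 against 0.688% and 0 at D11, where 21.2% of all mRNAs were and 4 had an unadjusted p under 0.05, as 78.0% of all mRNAs had. None was DE and lower on any day, where 0.0291% of all mRNAs were at D0, 0.485% at D1 and at D3, 4.86% at D7 and 2.64% at D11. Their median log2 difference was 1.20, 1.39, 1.31, 0.48 and 0.31 from D0 to D11, beside -0.05, -0.09, -0.07, -0.19 and 0.51 for all mRNAs.

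Bnip3l is the closest paralogue of Bnip3 and, like it, a receptor in mitophagy. At D0, D1 and D3 it rose by 1.67, 2.00 and 1.37. At D11 Bnip3l had 120.4 and 117 TPM in hypoxia and 98.9 and 118 TPM in normoxia, with overlapping libraries and a log2 difference of 0.13 (limma adjusted p = 0.34), and at D7 the difference was 0.37 (adjusted p = 0.020). The difference at D11 minus that at D7 was -0.24 for Bnip3l (limma adjusted p = 0.23). Higd1a, a small protein of the inner mitochondrial membrane that stabilises respiratory complexes in low oxygen, rose at the same timepoints by 1.62, 1.70 and 1.97 and differed by 0.13 (adjusted p = 0.43) at D7 and 0.30 (adjusted p = 0.033) at D11. With 1150 and 1107 TPM in hypoxia at D3 against 268 and 308 TPM in normoxia, Higd1a lay above each of the 3 members in those libraries.

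Hk1, the hexokinase that binds the outer mitochondrial membrane, was DE from D0 to D3, with rises of 1.46, 1.52 and 1.25. At D11 Hk1 had 66.7 and 60.2 TPM in hypoxia and 37.2 and 39.9 TPM in normoxia, a log2 difference of 0.70 that was not DE, on the same side as before. Pdk3, a kinase that shuts off pyruvate dehydrogenase, rose by 1.27 at D1 and 1.41 at D3. At D11 Pdk3 had 24.2 and 23.6 TPM in hypoxia and 30.2 and 38.4 TPM in normoxia, a log2 difference of -0.49 (limma adjusted p = 0.0045) on the same side as Bnip3 and under the threshold for size. The difference at D11 minus that at D7 was -1.03 for Pdk3 (limma adjusted p = 0.00016). Pdk3 was the 1 of the 6 named targets that was DE and lower in it, as Bnip3 was, where 4.31% of all mRNAs were. Mxi1, a MYC antagonist, rose by 1.18 at D3. Hk2, the inducible hexokinase, was the list's only DE member at D7, with a rise of 1.23, and without replicate 2 of hypoxia no member was DE there.

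Of 24 mitophagy receptors and adaptors, 3 had a name, and Bnip3l was the 1 that was DE at D0, D1 and D3. On those days 0.853%, 1.29% and 1.4% of all mRNAs were DE and higher. Its companions were Nbr1, an autophagy cargo receptor, and Map1lc3a, one of the LC3 proteins that Bnip3 binds. By limma 0 of the 3 were DE at D7 and at D11, where 0.688% and 21.2% of all mRNAs were DE and higher and 4.86% and 2.64% DE and lower. On both days 2 of 3 had an unadjusted p under 0.05, beside 55.4% and 78.0% of all mRNAs. At D11 the list's log2 differences lay between 0.13 for Bnip3l and 0.48 for Map1lc3a, all under the median of all mRNAs, where Bnip3 had -1.11.

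The named respiratory chain subunits, among which Ndufa4l2 has its family, showed no DE member between hypoxia and normoxia on any day. Of all mRNAs, 0.853%, 1.29%, 1.4%, 0.688% and 21.2% were DE and higher from D0 to D11. The shares DE and lower were 0.0291%, 0.485%, 0.485%, 4.86% and 2.64%. From D0 to D7 these shares are small, and no call among the few named subunits is close to them. Of 37 complex I subunits 7 had a name, with 1, 4, 5, 0 and 3 at an unadjusted p under 0.05 from D0 to D11 by limma, where 19.4%, 37.1%, 40.5%, 55.4% and 78.0% of all mRNAs had one. Their median log2 difference was -0.14, -0.28, -0.27, -0.06 and 0.05 from D0 to D11. Of 40 subunits of complexes II to V 8 had a name, with 1, 5, 7, 4 and 4 at an unadjusted p under 0.05 and medians of -0.12, -0.38, -0.43, 0.20 and -0.05. At D3 all 8 were below 0, between -0.61 for Cox7a1, a muscle-type subunit of cytochrome c oxidase, and -0.13 for Atp5k. With each library centred, 1 subunit of complex I and 3 of complexes II to V were DE and lower at D11, where 1004 of all 10318 mRNAs were DE and lower and 404 DE and higher.

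**Figure D4:**
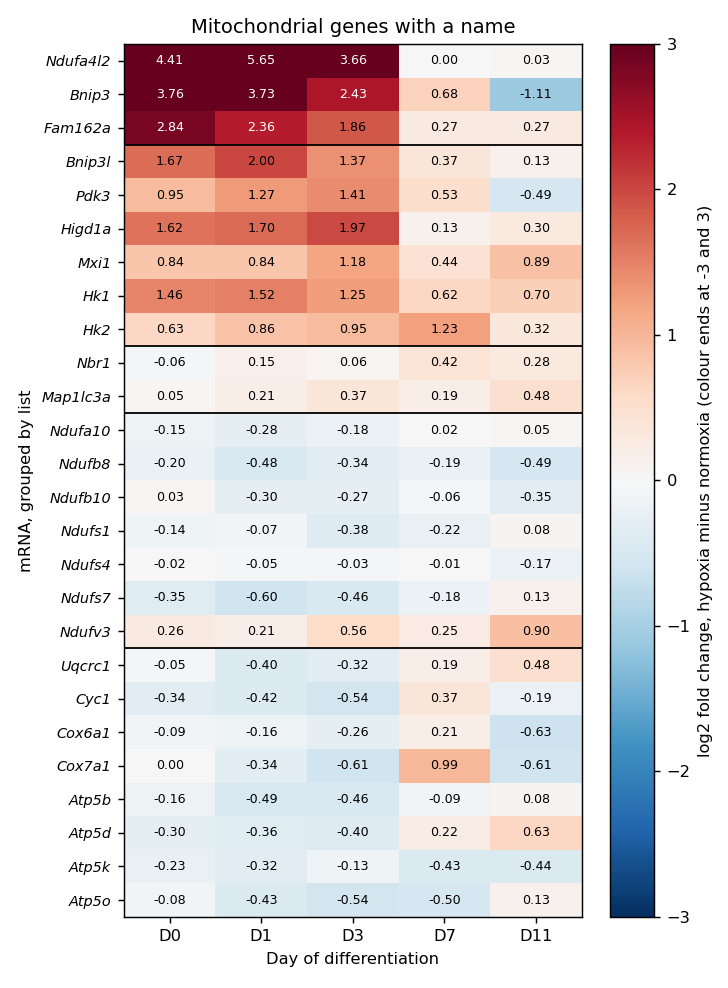
Log2 difference between hypoxia and normoxia, printed in each cell, for Ndufa4l2, Bnip3 and Fam162a (top), other HIF targets listed with the mitochondrion, mitophagy genes, complex I subunits and subunits of complexes II to V (bottom) by day, with red for higher and blue for lower in hypoxia. The 3 members on top are red at D0, D1 and D3 and Bnip3 is blue at D11 at -1.11. Among the other HIF targets the reddest cells of D7 and D11 are Hk2 at D7 at 1.23 and Mxi1 at 0.89 and Hk1 at 0.70 at D11. The respiratory subunits with the most red are Cox7a1 at D7 at 0.99 and Ndufv3 at D11 at 0.90, neither of them DE.

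Bnip3 is also a BH3-only protein, and 6 of 16 other BCL2 family genes had a name. By limma 0 of them were DE at D0, D1 and D3, where 0.853%, 1.29% and 1.4% of all mRNAs were DE and higher, and 0, 3 and 3 had an unadjusted p under 0.05, beside 19.4%, 37.1% and 40.5% of all mRNAs. At D7, where 0.688% of all mRNAs were DE and higher and 4.86% DE and lower, Pmaip1, the BH3-only protein NOXA, rose by 1.09 and Bmf, another BH3-only gene, fell by 2.47 on the log2 scale. At D11 4 of 6 were DE and higher, which are Bmf, Bbc3 or PUMA, the survival gene Bcl2l1 and Bad, with log2 differences of 2.60, 1.40, 1.31 and 1.28, where 21.2% of all mRNAs were DE and higher. With each library centred, 1 of the 6 was DE and higher and 1 DE and lower, where 404 and 1004 of all 10318 mRNAs were. Bmf thus had the signs opposite to those of Bnip3 on both days, and Pmaip1, at -0.97 at D11 (limma adjusted p = 5.0e-05) and not DE there, had the same signs as Bnip3.

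Of 11 HIF subunits and regulators 3 had a name. By limma 1, 1, 2, 0 and 1 of them were DE and higher in hypoxia from D0 to D11. Of all mRNAs, 0.853%, 1.29%, 1.4%, 0.688% and 21.2% were DE and higher on those days. Egln1, the prolyl hydroxylase PHD2 that is itself a HIF target, was DE from D0 to D3, with rises of 1.64, 2.14 and 1.92. At D11 Egln1 had 144 and 126 TPM in hypoxia and 105 and 111 TPM in normoxia, a difference of 0.31 that was not DE, on the same side as before and under the median of all mRNAs. Cited2, which competes with HIF-1 for its coactivators, rose by 1.07 at D3 and by 1.83 at D11. Of 10 fission and fusion genes 2 had a name. Mief2, a receptor for the fission GTPase Drp1, was DE and higher by 1.10 at D11, as 21.2% of all mRNAs were DE and higher. It was not DE with quantile normalization, with centred libraries or without replicate 1 of hypoxia at D11.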

How the data were processed

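RNA depleted of ribosomal RNA was sequenced strand-specifically from the 20 libraries. The submitters' processing notes name CASAVA 1.8.2, STAR 2.6.0c and kallisto 0.44.0. By the study's methods, the authors aligned reads with STAR to the CriGri-PICR genome and computed the deposited TPM values with kallisto, listing an mRNA when its TPM passed 1 in both libraries of a group. How reads shared by near-identical copies were split, which bears on Bnip3 with Bnip3l, Fam162a with Fam162b and Ndufa4l2 with Ndufa4, was not examined.

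Since the unit is not counts, log2(TPM + 1) was fitted in limma 3.58.1 (R 4.3.3; eBayes with trend, two-sided) with a mean for each of 10 groups over all 20 libraries, which leaves 10 residual degrees of freedom, and p-values were adjusted by Benjamini-Hochberg over all 10318 mRNAs. Folds are ratios of mean TPM. The fit was tested on simulated data. Descriptions and figures used pandas 2.3.3, numpy 2.4.6 and matplotlib 3.10.9 in Python 3.11.15. Gene names came from the study's gene tables, by name columns only, and their value columns were not used.

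The members and lists were chosen with earlier results of these data known. Named are the 3 members, the lncRNA near Bnip3, up to 4 DE members with the largest change per list, Bnip3l and Higd1a in any case, and the 3 named mRNAs most like each member. Hk1, Pdk3, Pmaip1 and Egln1 at D11, Cd36, Plin4, Pparg and Fabp4, Mxi1, Cox7a1 and Ndufv3 in a caption, Nbr1, Map1lc3a, Cox7a1 and Atp5k as range ends, and P4ha1, Ldha and Pgam1 at D7 and D11 were singled out after their values were seen. The same holds for the difference at D11 minus that at D7 of Pdk3, P4ha1, Ldha and Pgam1. Alternatives were pseudocounts of 0.1 and 5, a filter at 5 TPM, quantile normalization, median centring, eBayes without trend, a fit of the compared timepoints only, a replicate block and leaving out each library.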

Additional observations from a re-analysis of the deposited data

Results flagged for a closer look

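The effect of hypoxia on Bnip3 differed in sign between timepoints. The log2 difference at D11 minus that at D7 was -1.79 by the interaction contrast, with both hypoxic libraries below both normoxic libraries at D11 and above both at D7. The difference at D11 minus that at D0 was -4.87, minus that at D1 -4.84 and minus that at D3 -3.54; these involve the days that chose the genes, and the difference was not tested there.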

How the results depend on the processing

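Of 192 values that the alternatives gave for the 15 tested results of the 3 mRNAs, 169 kept their direction and their side of the thresholds, and of 108 for the described differences at D0, D1 and D3, 101 moved by less than the replicate spread and none changed sign. Those that changed sign lay near 0 or followed the scaling of D11. For Ndufa4l2, the difference at D7 was -0.024 with quantile normalization and -0.15 to 0.16 with 1 library left out, that at D11 -0.53 centred and -0.077 to 0.14 with 1 library left out, D11 minus D7 in hypoxia -0.0098 centred, and the interaction -0.79 centred and -0.13 to 0.18 with 1 library left out. For Fam162a, centring gave -0.29 at D11 and -0.14 for D11 minus D7 in hypoxia, and the interaction was 0.000505 with a pseudocount of 5, 0.18 with quantile normalization and -0.12 to 0.12 with 1 library left out. For Bnip3, the D11 difference was -0.61 with quantile normalization and -1.26 to -0.96 with 1 library left out, D11 minus D7 was -1.01 in hypoxia when centred and 0.78 in normoxia with quantile normalization. The cause was not tested.

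DE mRNAs numbered 91, 183, 194, 572 and 2464 from D0 to D11, 2989 and 972 for D11 minus D7 in hypoxia and normoxia and 4256 for the interaction. A pseudocount of 0.1 gave 153, 341, 378 and 1285 from D0 to D7 and 1697 for normoxia, and one of 5 gave 54, 98, 80, 115 and 671 from D0 to D11, 760, 412 and 1865. Quantile normalization gave 362 at D7, 990 at D11, 600 for hypoxia and 2193 for the interaction, and centring 376, 1408 and 725 for the first 3 of these. Higher against lower calls were 133 to 50 at D1, 144 to 50 at D3, 71 to 501 at D7, 2192 to 272 at D11, 2942 to 47 for hypoxia, 548 to 424 for normoxia and 3811 to 445 for the interaction. Quantile normalization made them 164 to 31 at D1, 140 to 222 at D7, 390 to 600 at D11, 213 to 387, 319 to 376 and 1114 to 1079, and centring 166 to 28 at D1, 177 to 29 at D3, 178 to 198 at D7, 404 to 1004 at D11, 179 to 546 for hypoxia and 1116 to 1818 for the interaction. With 1 library left out they were 117 to 103 at D1 without hypoxia replicate 2, 144 to 88 without normoxia replicate 1 and 166 to 31 without hypoxia replicate 1, 138 to 89 at D3 without hypoxia replicate 1 and 118 to 82 without normoxia replicate 1, 3175 to 74 for hypoxia without its D7 replicate 1, and 764 to 379 and 408 to 516 for normoxia without its D11 replicate 1 or 2. Same-numbered hypoxic and normoxic libraries of a timepoint had deviations correlated at r = -0.125 to 0.282, within the -0.435 to 0.372 of all pairs of groups. Whether equal numbers mark a pair is not stated, and these r cannot decide it. The replicate block changed no call of the 3 mRNAs (Bnip3 at D11 -1.11) and gave 92 DE mRNAs at D0. Crossed numbers, added after the data were seen, gave 183 at D1 and 2989 for D11 minus D7 in hypoxia. The limits are 2 libraries per group, names for 3858 mRNAs only and no counts.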
